A study of Mus musculus with 11 samples.

Results

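The genes of the miR-130, miR-301 and miR-721 family were followed through the reprogramming of mouse fibroblasts to induced pluripotent stem cells (iPSC). They were chosen by name: Mir130a, Mir130b, Mir301 (the gene of miR-301a), Mir301b and Mir721. Of these 5 genes, 4 had a row in the table of 3859 small RNA genes, 1924 of them miRNA genes. Mir721 had no row and was not analysed here, so its sequence is given but no level. No measured value was used to choose the members, although earlier results of these data were known when they were chosen.

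MicroRNAs are short RNAs, cut from a hairpin, that pair with messenger RNAs mainly through their seed, bases 2 to 8 counted from the 5′ end, and lower the output of those messages. miR-130, miR-301 and miR-721 share their seed and were found in mouse cells to promote the making of iPSC when supplied to fibroblasts. The homeobox gene Meox2 is a known target of the family in that setting. Messenger RNAs, Meox2 included, were not measured in these libraries.

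Small RNA was sequenced in 11 libraries, 1 per stage. The stages were uninduced embryonic fibroblasts (MEF), each of days 1 to 8 of doxycycline, and 2 pluripotent lines, established iPSC and embryonic stem cells (ESC). All were labelled Mbd3f/-, the untreated MEF included, which denotes 1 floxed and 1 deleted allele of Mbd3. Its protein belongs to NuRD, a repressor complex that remodels chromatin. The MEF were secondary fibroblasts with a doxycycline-inducible cassette for Oct4, Klf4, Sox2 and Myc, and days 1 to 8 are the same cells with doxycycline. The ESC column carries the name of the V6.5 line, so the genotype of that library is unclear. Per the labels, days 3 to 8, iPSC and ESC were grown on irradiated human foreskin fibroblasts, and MEF and days 1 and 2 without them. Oxygen was kept low, and the first medium, with serum and LIF, was later replaced by serum-replacement medium with inhibitors of MEK and GSK3, on a day that the sources give differently. Feeder cells, medium and later days cannot be told apart by this design. The iPSC and ESC libraries are 1 line each, grown for some days in the inhibitor medium before harvest.

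The mature sequences show what the family shares. They are from RefSeq (build GRCm38.p6), and the seed is in capitals.
miR-130a-3p: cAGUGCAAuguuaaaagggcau
miR-130b-3p: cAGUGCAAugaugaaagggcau
miR-301a-3p: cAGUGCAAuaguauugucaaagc
miR-721: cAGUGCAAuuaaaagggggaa
All 4 were identical over their first 9 bases. miR-130a-3p and miR-130b-3p matched at 20 of 22 positions, with the substitutions U11A and A13G from miR-130a to miR-130b, counted from the 5′ end. miR-301a-3p matched miR-130a-3p at 12 of 22 positions, and miR-721 did so at 15 of 21. The miR-301b 3p arm, miR-301b-3p, is known to carry the family seed. Mir301b is shown by its 5p arm, the strand opposite the 3p arm in the hairpin, which has the same seed as the 5p arm of miR-301a.
miR-301a-5p: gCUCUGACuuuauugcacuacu
miR-301b-5p: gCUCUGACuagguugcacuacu
The table gives 1 value per hairpin gene, so the arms cannot be separated in it.

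Of 1738 mature mouse miRNAs in the RefSeq table, 7 carried this seed (0.403%), with miR-301b-3p not counted among them. They came from Mir130a, Mir130b, Mir301, Mir721, Mir130c, Mir6341 and Mir6389. Mir6341 and Mir6389 were listed at 0 in every library. Mir130c was above 0 in 1 library, at 42 FPKM. Of these 7, Mir130a, Mir130b and Mir301 were the ones measured above that level. The search for this seed was made after the values of the table were known.

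The run GUGCA within this seed occurs in a shifted register in other families. The list of related seeds holds genes of these families and also Mir130c, which carries the family seed itself. miR-148a-3p and miR-152-3p have the run GUGCA 1 position later, and miR-19a-3p and miR-19b-3p 1 position earlier, so these families have seeds of their own.
miR-148a-3p: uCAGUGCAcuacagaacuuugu
miR-152-3p: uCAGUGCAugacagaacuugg
miR-19a-3p: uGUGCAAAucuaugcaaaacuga
miR-19b-3p: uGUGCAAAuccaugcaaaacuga
The seeds of miR-17, miR-294 and miR-302, known to promote reprogramming, hold a related but different run.
miR-294-3p: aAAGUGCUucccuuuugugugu
miR-17-5p: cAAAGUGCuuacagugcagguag

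The 4 measured genes lie at 3 places in the genome (GENCODE vM21, GRCm38). Mir130a is on chromosome 2, 84741115 to 84741178, on the minus strand and within no other annotated gene. Mir301 is on chromosome 11, 87113004 to 87113089, in an intron of Ska2, a gene of the mitotic spindle and kinetochore, on the same strand. Mir130b (17124061 to 17124142) and Mir301b (17124400 to 17124496) are both on chromosome 16, 257 nt apart in an intron of 2610318N02Rik and on its strand. No other small RNA gene of the table lay within 10 kb of any of the 4 genes. Mir721 is on chromosome 5, 136375716 to 136375803, in an intron of Cux1.

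Values are FPKM, fragment counts scaled by transcript length and by library size, as the authors deposited them. Low values came in steps of whole reads, which implied between 11600000 mapped reads in MEF and 21900000 on day 7. On that scale the thinnest member value, Mir301b in MEF, rested on about 402 reads and every other on at least 1274. The genes of the table took 22.7% and 27.7% of the implied mapped reads on days 7 and 8, and between 44.95% and 59.2% in the other libraries. The median FPKM of the 476 miRNA genes above 0 in every library also shifted between libraries, in another way. It was 3.02-fold that of MEF on day 6, 1.25-fold on day 7 and 1.37-fold on day 8. Member values are therefore given both as deposited and relative to this median.

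The neighbouring genes Mir130b and Mir301b were both highest on day 6, far above MEF, and were lower again on days 7 and 8. Mir301b was highest on day 7 instead relative to the miRNA median, and its day 8 level was near that of day 6. As deposited, the genes at the other places, Mir130a and Mir301, spanned 1.68- and 3.29-fold over the course and stood highest in the established pluripotent lines. Relative to the median, Mir301 in ESC was no higher than on day 8. Over MEF and days 1 to 8, 1 of the 4 genes, Mir301b, rose (limma slope, Benjamini-Hochberg adjusted p under 0.05 over all 1419 transcripts tested), against a background of 12.5% of transcripts. None of the 4 genes fell, against 10.6%, so 1 of 4 was called in either direction, against 23.0%. All 4 slopes were above 0, although that of Mir130a was below 0 relative to the miRNA median. A curve over time (limma F-test of day and day squared) was called for 2 of the 4, Mir130b and Mir301b, against 32.6% of transcripts.

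**Figure D1:**
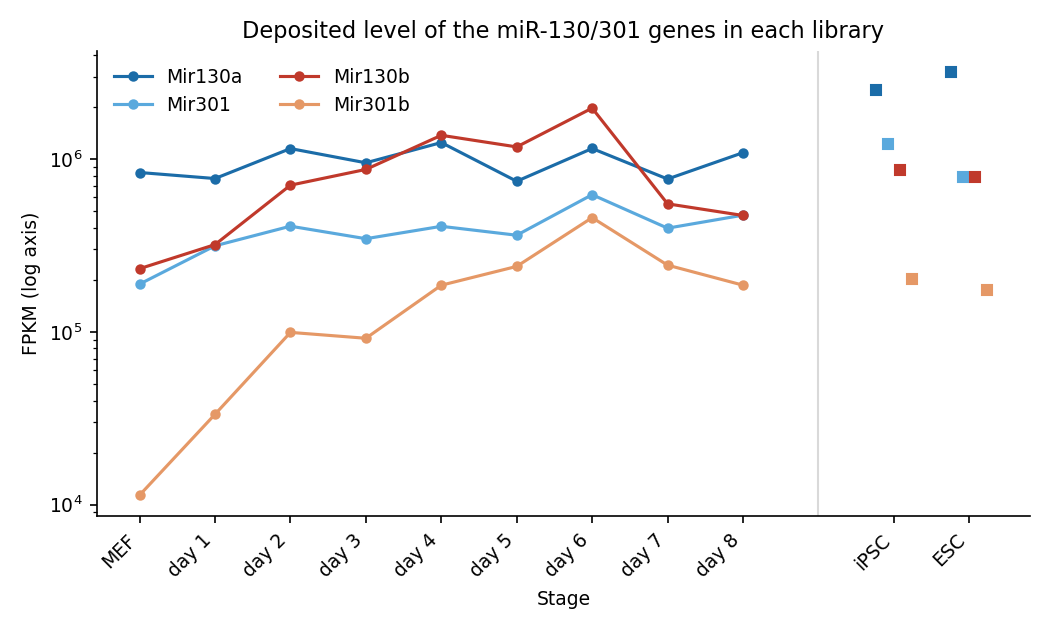
FPKM on a log axis (y) of the 4 genes in each of the 11 libraries (x), with lines joining MEF and days 1 to 8 and squares for the iPSC and ESC lines, 1 library per point. Mir130b (red) and Mir301b (orange) reach their highest values on day 6, while Mir130a (dark blue) is highest in ESC and Mir301 (light blue) in iPSC.

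Mir301b is a paralog of miR-301a, and its mature RNA is known mainly from tumours. It showed the widest range of the family. Mir301b was at 11336 FPKM in MEF and at 33291, 99157, 91683, 185900, 238920, 457454, 242965 and 186016 FPKM on days 1 to 8. It was at 201218 FPKM in the iPSC line and 175009 FPKM in the ESC line. MEF was the lowest library, day 1 came next, and day 6 was the highest, 40.4-fold above MEF. All later stages and both lines stood above day 1.

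Mir301b rose by 0.51 ± 0.12 per day on the log2 scale (SE over 9 libraries; limma adjusted p = 0.0169). This slope ranked 73 of 895 miRNA genes tested. The F-test of day and day squared gave an adjusted p of 0.0014, also by limma. Without the MEF library the slope was 0.37 and its adjusted p 0.0605, so the straight-line call needed MEF. Within days 3 to 8, the libraries on feeder cells, the slope was 0.21 (limma adjusted p = 0.444). Relative to the miRNA median the slope was 0.46 ± 0.08 (SE, limma adjusted p = 0.00285, where 14.2% of transcripts rose). On that scale the peak lay on day 7, at 17.2-fold above MEF, against 13.4-fold on day 6 and 12-fold on day 8.

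Mir130b, whose mature RNA is known in human cells to repress the stress gene TP53INP1, followed its neighbour up but not as far. Mir130b was at 231747 FPKM in MEF and at 319440, 705231, 869944, 1371010, 1174240, 1969320, 549920 and 470990 FPKM on days 1 to 8. In the iPSC line it was at 858757 FPKM and in the ESC line at 782710 FPKM. As deposited, its 4 highest libraries were those of days 3 to 6, and both pluripotent lines stood between days 2 and 3. Day 6 was 8.5-fold above MEF, and day 7 was 3.58-fold below day 6.

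Mir130b changed over the course by the F-test (limma adjusted p = 0.0186), with a curve that opened downwards. A straight line did not describe it, with a slope of 0.16 ± 0.12 per day (log2, SE, n = 9 libraries; limma adjusted p = 0.391). Over MEF and days 1 to 6 alone the slope was 0.50 (limma adjusted p = 0.0118), and within days 3 to 8 it was -0.22 (limma adjusted p = 0.437). Relative to the miRNA median the F-test gave an adjusted p of 0.0369 by limma. On that scale days 3 to 6 were 2.29-, 2.63-, 2.34- and 2.81-fold above MEF, day 7 was 1.9-fold and day 8 was 1.48-fold above it. The ESC line, at 1.44-fold of MEF, was below day 2 (1.72-fold) on that scale. The drop from day 6 to day 7 was 1.48-fold relative to the miRNA median, in place of 3.58-fold. Of the 476 miRNA genes, 23.1% dropped more steeply at that step.

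Mir130a, whose mature RNA is known in human endothelial cells to repress the homeobox genes GAX and HOXA5, stayed nearly level as deposited while fibroblasts were reprogrammed. Mir130a was at 834920 FPKM in MEF and at 770468, 1148640, 950118, 1244700, 742873, 1149700, 765494 and 1087290 FPKM on days 1 to 8. It was at 2501190 FPKM in the iPSC line and 3190400 FPKM in the ESC line. As deposited, the 9 libraries of the course lay within 1.68-fold of each other, and both lines stood above all of them.

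No change of Mir130a over the course was detected. Its slope was 0.02 ± 0.07 per day (log2, SE, n = 9 libraries; limma adjusted p = 0.891), with a 95% interval of -0.13 to 0.17, and the F-test adjusted p was 0.908. Relative to the miRNA median Mir130a was below MEF on every day of the course. It was lower on day 5 (0.411-fold of MEF) and day 6 (0.456-fold) than on day 8 (0.95-fold). On that scale the slope was -0.03 (limma adjusted p = 0.796).

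Mir301, from the Ska2 intron, encodes miR-301a. It was at 188706 FPKM in MEF and at 314307, 408253, 345513, 407599, 361963, 621271, 397693 and 472859 FPKM on days 1 to 8. It reached 1217760 FPKM in the iPSC line and 790812 FPKM in the ESC line. As deposited, MEF was the lowest library, and both lines stood above every day of the course. The slope was 0.13 ± 0.07 per day (log2, SE, n = 9 libraries; limma adjusted p = 0.225, 95% interval -0.03 to 0.28), and the F-test adjusted p was 0.211. Scaling to the miRNA median gave a slope of 0.08 (limma adjusted p = 0.406). On that scale days 4 and 5 were below MEF (0.959- and 0.887-fold), and ESC (1.79-fold of MEF) was not above day 8 (1.83-fold). After quantile normalization between libraries the slope was 0.20 and was called (limma adjusted p = 0.0334).

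Setting members against each other within a library removes the library's scaling. The ratio of Mir130b to Mir130a was 1.49-, 2.21-, 3.3-, 3.97-, 5.69- and 6.17-fold that of MEF on days 1 to 6, then 2.59-fold on day 7 and 1.56-fold on day 8. In the iPSC line this ratio was 1.24-fold that of MEF and in the ESC line 0.884-fold. Mir130b thus gained on Mir130a in each library from day 1 to day 6, and the pluripotent lines held them in nearly the proportion of MEF. With 1 library per stage these ratios carry no replicate error.

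The neighbours Mir301b and Mir130b did not keep a fixed ratio. Mir301b over Mir130b was 2.13-fold the MEF ratio on day 1, 2.87-fold on day 2, 4.75-fold on day 6, 9.03-fold on day 7 and 8.07-fold on day 8. It was 4.79-fold in the iPSC line and 4.57-fold in the ESC line. Mir301b thus stood higher against its neighbour than in MEF in each of these libraries, and most so on days 7 and 8. The ratio of Mir301 to Mir130a moved less, between 1.45-fold and 2.39-fold that of MEF over days 1 to 8, and was 2.15-fold in iPSC and 1.1-fold in ESC.

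**Figure D2:**
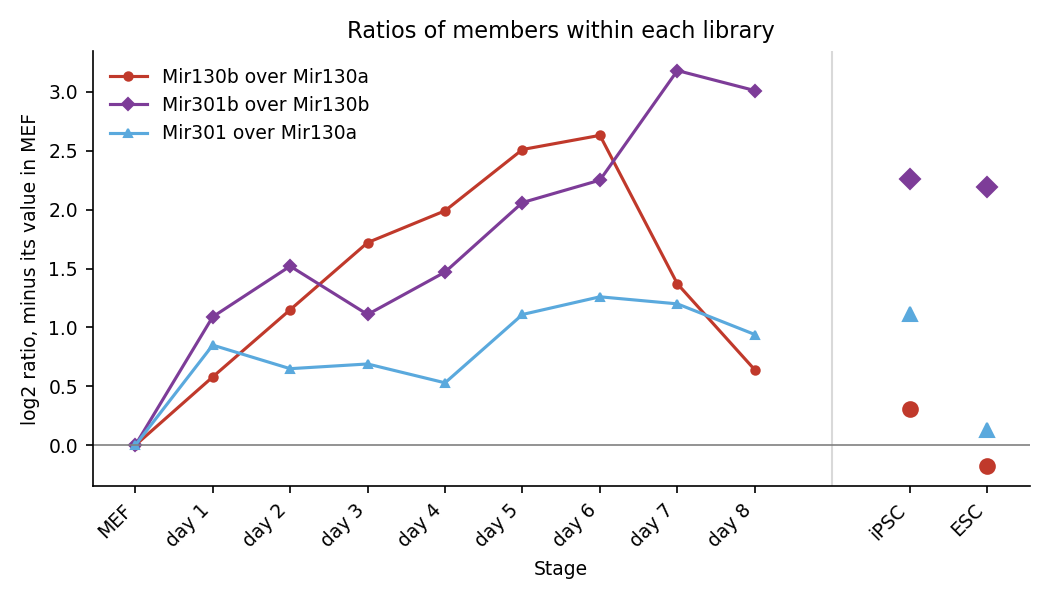
log2 ratio of 2 members within the same library minus its value in MEF (y) by stage (x), with lines over MEF and days 1 to 8 and larger markers for the iPSC and ESC lines. Mir130b over Mir130a (circles) climbs to 2.63 on day 6 and is 0.31 in iPSC and -0.18 in ESC. Mir301b over Mir130b (diamonds) is highest on day 7, at 3.18.

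Levels of different members need care, because FPKM of so short a gene depends strongly on its length. Mir130a is 64 nt long and Mir301b 97 nt, and by the length model that made low values whole the same number of reads gives Mir130a the higher FPKM. In reads per 1000000 mapped reads under that model, Mir130a, Mir130b, Mir301 and Mir301b were at 782, 433, 404 and 34.7 in MEF. On day 6 they were at 1077, 3677, 1332 and 1400. In the iPSC line they were at 2344, 1604, 2610 and 616, and in the ESC line at 2989, 1462, 1695 and 536. Mir130b thus held 26.2% of the summed reads of the 4 genes in MEF, 49.1% on day 6, 25.3% on day 8 and 21.9% in ESC. The sum itself was 1654 reads on that scale in MEF, 7486 on day 6, 3481 on day 8, 7173 in iPSC and 6682 in ESC. Scaled to the miRNA median, with MEF kept at 1654, the sum was 2477 on day 6, 2540 on day 8, 4218 in iPSC and 2858 in ESC. On that scale iPSC stood above day 6, and day 8 was not below it. By the shares, which no scaling of a library changes, Mir130b and Mir301b supplied most of the sum on day 6 and Mir130a and Mir301 most of it in the lines.

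The libraries of each gene can be ordered by level, with the scatter around its own curve (day and day squared) as the only measure of spread. For Mir130a this scatter was 1.25-fold, and 2 of the 10 gaps between neighbours in the order were larger, those from day 4 to iPSC and from iPSC to ESC. For Mir130b it was 1.37-fold, and the larger gaps were 3, from MEF to day 1, from day 1 to day 8 and from day 4 to day 6. For Mir301, with 1.23-fold scatter, 4 gaps were larger, among them those from MEF to day 1 and from day 6 to ESC. For Mir301b, with 1.33-fold scatter, they were also 4, from MEF to day 1, day 1 to day 3, day 2 to ESC and day 7 to day 6. All other neighbours in these orders did not differ beyond that scatter.

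The pluripotent lines were compared with MEF without a test, since each is 1 library. Mir301b was 17.8-fold above MEF in iPSC and 15.4-fold in ESC. Mir301 was 6.45-fold above MEF in iPSC and 4.19-fold in ESC. Mir130b was 3.71- and 3.38-fold above MEF in iPSC and ESC, and Mir130a 3- and 3.82-fold. At least 4-fold in both lines were 2 of the 4 genes, against a background of 29.7% of transcripts. None was at least 4-fold below MEF in both lines, against 7.75%. Relative to the miRNA median Mir301b was 10.4- and 6.6-fold above MEF in iPSC and ESC. The other members lay between 1.44- and 3.79-fold on that scale. Day 8 was 16.4-fold above MEF for Mir301b, the only member at least 4-fold higher there, against 37.7% of transcripts. None was at least 4-fold lower on day 8, against 17.0%.

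As deposited, day 8 was close to the pluripotent lines for Mir301b and below them for the other members. Mir301b was 1.08-fold of its day 8 level in iPSC and 0.941-fold in ESC. Mir130a was 2.3- and 2.93-fold above day 8 in iPSC and ESC, Mir301 2.58- and 1.67-fold, and Mir130b 1.82- and 1.66-fold. Relative to the miRNA median, which was higher in both lines than on day 8, Mir130a was 1.85- and 1.72-fold above day 8. On that scale Mir130b and Mir301 in ESC were at 0.975- and 0.981-fold of day 8, and Mir301b was at 0.872-fold in iPSC and 0.552-fold in ESC.

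**Figure D3:**
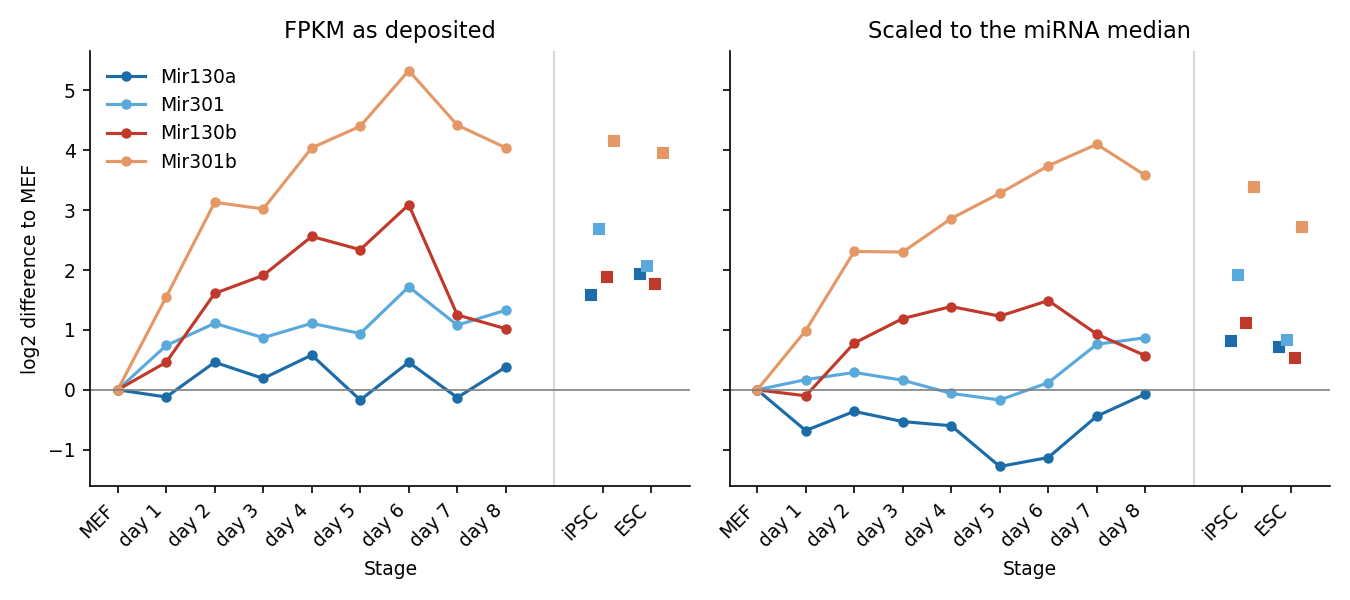
log2 difference of each member to MEF (y) by stage (x), from FPKM as deposited (left) and relative to the median of 476 miRNA genes (right), with squares for the iPSC and ESC lines, set apart sideways so that none is hidden. Scaling lowers the day 6 value of Mir130b to 1.49 and that of Mir301b to 3.74, and moves the highest Mir301b point to day 7.

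Human feeder cells entered at day 3, and the mature miR-130a, miR-130b and miR-301a are known to be the same in mouse and human, so human RNA could be counted under the mouse genes. As deposited, day 3 was 1.23-fold of day 2 for Mir130b, 0.925-fold for Mir301b, 0.846-fold for Mir301 and 0.827-fold for Mir130a. Relative to the miRNA median, day 3 was 1.33-fold of day 2 for Mir130b, 0.995-fold for Mir301b, 0.911-fold for Mir301 and 0.89-fold for Mir130a. The part of feeder RNA in the later levels was not tested.

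The marker miRNAs of the labelled cell types were only in part where the labels place them, with exceptions in MEF, iPSC and ESC. Over all listed miRNAs, the fibroblast sum was higher in ESC than in MEF, and the pluripotency sum was highest on day 8. The 12 miRNAs of the pluripotency list summed to 21448 FPKM in MEF, 46912323 on day 8, 21923202 in iPSC and 17966781 in ESC. The 6 of them above 0 throughout summed to 5583 FPKM in MEF, 15491639 on day 8, 21750260 in iPSC and 17579844 in ESC. Mir295 made up 31201600 FPKM of the 12-miRNA sum on day 8 and was listed at 0 in both lines. The 7 fibroblast miRNAs summed to 25207797 FPKM in MEF, where Mir143 was listed at 0, 11264737 on day 8, 5998227 in iPSC and 26299230 in ESC. Over the 6 of them above 0 in every library, the sum was 25207797 FPKM in MEF, 3904597 on day 8, 2071027 in iPSC and 8983030 in ESC. In bulk RNA, fewer cells of a type and less RNA per cell cannot be told apart. The neural list (2 of its 3 genes in the table) was also highest on day 6, but unlike Mir130b it was below MEF on day 8 and in both lines, at 80534 FPKM in MEF, 432724 on day 6, 45024 on day 8, 22942 in iPSC and 19537 in ESC. The endothelial miRNA Mir126 moved with Mir130a, at 44995 FPKM in MEF, 55912 on day 8, 204018 in iPSC and 231538 in ESC. The 4 blood miRNAs summed to 258217 FPKM in MEF, 46573 on day 8, 563789 in iPSC and 188907 in ESC. The 3 muscle miRNAs summed to 141389 FPKM in MEF, 253 on day 8, 1407 in iPSC and 615 in ESC. The part of these cells in the members' levels was not tested.

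The miRNA genes most like each member were taken by Pearson correlation of log2(FPKM + 10) over the 11 libraries, among 441 miRNA genes with a mean of at least 1000 FPKM. They are descriptions, since all values of a library share its depth and scaling. For Mir130b they were Mir466b-1, Mir466b-6 and Mir466b-3 (r = 0.956, 0.955 and 0.954), and for Mir301b Mir669b, Mir669a-10 and Mir669a-11 (r = 0.98, 0.974 and 0.973). All 6 belong to families of near-identical copies in an Sfmbt2 intron, whose separate values are uncertain. For Mir301 they were Mir93, Mir20b and Mir743b (r = 0.962, 0.941 and 0.941). For Mir130a they were Mir101a, Mir126 and Mir18b (r = 0.958, 0.94 and 0.914). Between members, r was 0.82 for Mir130b with Mir301b and 0.82 for Mir130a with Mir301. It was 0.28 for Mir130a with Mir130b, whose mature sequences were the most alike of those compared. The mature sequence of Mir301b that carries the family seed was not compared, so pairs with Mir301b were not ranked by likeness of sequence.

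Other miRNAs known from reprogramming frame these slopes. Their lists were chosen with earlier results of these data known, so the counts are descriptions and not a test. Of 13 miRNAs of the miR-17, miR-290 and miR-302 groups, which promote reprogramming, 9 rose and none fell, against 12.5% and 10.6% of all transcripts, with a median slope of 1.06 per day (log2). Among the 4 not called, Mir17 and Mir20a were listed at 0 on day 2. Among the 9 that rose, Mir302b, Mir302c and Mir302d were listed at 0 in MEF, and their slopes rest partly on that value. Of 14 miRNAs known as barriers, such as let-7 and miR-34 genes, 9 fell and none rose, against the same shares of all transcripts. Their median slope was -0.30, and Mirlet7a-1 (-0.05) and Mir34a (0.10) were among those not called. Over all 1419 transcripts the median slope was 0.02. Mir301b, at 0.51, lay below the 9 that rose, whose slopes were between 0.59 and 1.30. The steepest was Mir294 at 1.30, and the most abundant Mir295 at 1.18. Among barriers, Mir214 fell most steeply (-0.57) and the most abundant was Mir21 (-0.37).

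Of the 8 genes listed for related seeds, 7 were in the table and 6 were tested. None rose and none fell, although Mir148a missed the threshold narrowly (slope -0.23, limma adjusted p = 0.0508) and fell relative to the miRNA median (slope -0.28, limma adjusted p = 0.0352). Mir148a was at 13119300 FPKM in MEF, 4541700 on day 6, 2747670 on day 8, 9155720 in iPSC and 10943600 in ESC. It was thus lower on days 6 and 8 than at either end, where Mir130b was highest on day 6. Mir19a and Mir19b-1 were listed at 0 on day 2 and above 0 in the other 10 libraries, and their slopes rest partly on that value.

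**Figure D4:**
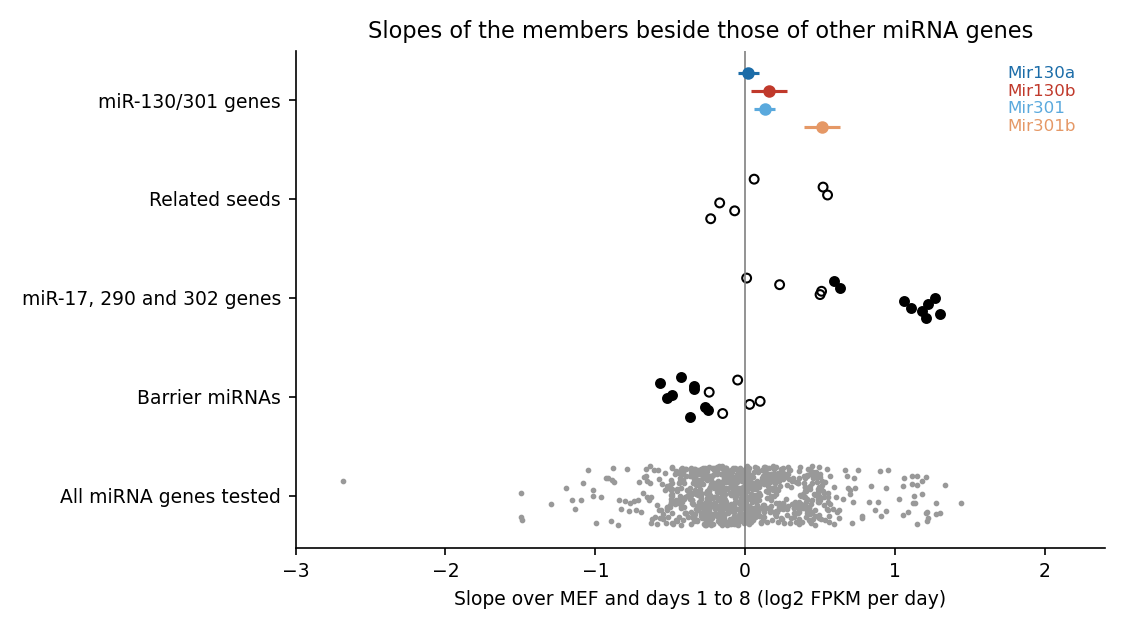
Slope over MEF and days 1 to 8 in log2 FPKM per day (x) for the 4 members with SE bars, for the related seeds, the miR-17, miR-290 and miR-302 genes and the barrier miRNAs (filled black points: adjusted p under 0.05) and for the 895 miRNA genes tested (grey). Mir301b stands at 0.51, and Mir130a, Mir130b and Mir301 lie between 0.02 and 0.16.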

How the data were processed

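Members were chosen by name, not by a measured value, but members and lists alike with earlier results of these data known. Values are FPKM per small RNA gene, as deposited by the authors. Build mm10, Bowtie2 2, Cufflinks 2.2.1 and CASAVA 1.8.2 are named, without roles, per the submitters' processing notes. Not given in the sources used here were the annotation and the handling of reads matching several loci. IDs were matched to GENCODE vM21 (3712 of 3859 found).

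Mapped reads were estimated as the number that made low values (0.5 to 5.5 reads) whole within 0.05 read, with fragments of 200 ± 80 nt assumed. It was fitted to those values, so the 91.7% of 4812 that came out whole are no independent check. No count test was run.

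limma 3.58.1 (R 4.3.3) was fitted to log2(FPKM + 10) in 9 libraries, MEF placed at day 0, with Benjamini-Hochberg adjustment (threshold 0.05, two-sided). The 1419 transcripts fitted had a mean of at least 10 FPKM over all 11 libraries. The fit was also run on simulated data with independent scatter and known straight slopes. Those data held no shifts between whole libraries, so that run is no check against such shifts. With 1 library per stage, p-values measure scatter around a trend, not spread between cultures. The +10 understates changes of low genes. Alternatives were other pseudocounts (1, 100), filters, scalings and left-out libraries. Named genes were all members, the 3 most like each, and of each list the most abundant and the steepest called.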

Additional observations from a re-analysis of the deposited data

How the results depend on the processing

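The F-test calls of Mir130b and Mir301b held in all 17 alternatives that could be fitted. Leaving out 1 library gave F-test adjusted p values of 0.0202 to 0.0424 for Mir130b and 0.00233 to 0.015 for Mir301b. It gave slopes of 0.37 to 0.65 for Mir301b (lost without MEF, adjusted p = 0.0605), 0.06 to 0.29 for Mir130b, 0.08 to 0.15 for Mir301 and 0.00 to 0.04 for Mir130a. It gave 93 to 175 rising and 97 to 170 falling transcripts. Without days 7 and 8 the slope of Mir130b was 0.50 and was called, and 69 transcripts fell. Within days 3 to 8 the slopes were -0.22 for Mir130b, 0.21 for Mir301b and -0.01 for Mir130a, and 66 transcripts rose and 80 fell. With miRNA genes alone 111 of 895 rose, against 177 of 1419 transcripts in the main fit. Quantile normalization gave Mir301 a called slope of 0.20 (adjusted p = 0.0334) and F-test (0.0415), and scaling to the miRNA median gave Mir130a a slope of -0.03. The cause of these changes was not tested.

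Log2 differences to MEF that moved by more than the SD around a straight line (0.31 for Mir130a, 0.96 for Mir130b, 0.33 for Mir301 and 0.94 for Mir301b) were as follows. After quantile normalization Mir130a was at 0.99 on day 8, 0.58 in iPSC and 1.44 in ESC, Mir301 at 2.01 in iPSC and 1.58 in ESC, and Mir301b at 3.10 and 2.86. Relative to the miRNA median Mir130a was at -0.07 on day 8, 0.82 in iPSC and 0.71 in ESC. Mir130b was at 0.53 in ESC, Mir301 at 0.87 on day 8, 1.92 in iPSC and 0.84 in ESC, and Mir301b at 2.72 in ESC. Beyond the smaller scatter around a curve, Mir130b moved too in iPSC (1.28 after quantile normalization, 1.12 relative to the median) and ESC (1.26, quantile), and Mir301b relative to the median on day 8 (3.58) and in iPSC (3.38). No paired analysis was possible because each stage has 1 library.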
